A study of Homo sapiens with 12 samples.

Results

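The genes described here are 10 members of the BCL2 family, which were taken from the deposited count table by their gene symbols and were 10 of its 57500 genes. Of these, 5 are survival genes (BCL2, BCL2L1, BCL2L2, MCL1 and BCL2A1), 1 is a pore-forming effector (BAK1) and 4 are BH3-only death genes (BCL2L11, BMF, BID and PMAIP1). The libraries were made from 3 established human cancer lines and form 4 groups, each with 3 biological replicates. SW480 was derived from a primary colorectal cancer and SW620 from a metastasis of the same patient, and both grew untreated in DMEM with serum. PEO4 is an ovarian cancer line that grew in RPMI medium with serum, alone (control) or supplemented for 6 days with recombinant human TGF-β at 10 ng/mL. All cultures received penicillin and streptomycin, and the labels give no genetic change introduced by the study in any group. The design compared SW620 with SW480 and TGF-β-treated PEO4 with its control.

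BCL2 family proteins decide whether the outer mitochondrial membrane stays closed. Survival proteins hold the effectors BAK1 and BAX in check, BH3-only proteins bind and block the survival proteins or activate the effectors, and open effector pores release cytochrome c, which starts the caspase cascade through APAF1. TGF-β is known to drive cell death in some epithelial cells and invasion or survival in others. In the epithelial settings where it kills, BCL2L11 and BMF are among the BH3-only genes linked to its action.

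BMF encodes Bcl-2 modifying factor, a BH3-only protein that binds the dynein light chain DYNLL2 in healthy cells. It lies at chr15:40087890-40108892 on the minus strand of GRCh38 (ENSG00000104081). Its promoter sequence is shown because BMF was the 1 member past the test's threshold in both comparisons. The 5-base motif CAGAC, read on either strand (GTCTG on the other), is a half-site known to be bound by SMAD proteins, which carry the TGF-β signal to DNA. For BMF, 2 transcript starts had a window of 250 bases before the start in RefSeq (GRCh38.p14), printed 5′ to 3′ on the gene's strand with the motif in capitals.
BMF window 1, chr15:40108880-40109129: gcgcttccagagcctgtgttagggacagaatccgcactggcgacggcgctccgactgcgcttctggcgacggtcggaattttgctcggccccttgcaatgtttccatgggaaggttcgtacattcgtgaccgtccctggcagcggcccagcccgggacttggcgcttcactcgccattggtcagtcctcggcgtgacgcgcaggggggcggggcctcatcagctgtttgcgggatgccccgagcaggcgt
BMF window 2, chr15:40106967-40107216: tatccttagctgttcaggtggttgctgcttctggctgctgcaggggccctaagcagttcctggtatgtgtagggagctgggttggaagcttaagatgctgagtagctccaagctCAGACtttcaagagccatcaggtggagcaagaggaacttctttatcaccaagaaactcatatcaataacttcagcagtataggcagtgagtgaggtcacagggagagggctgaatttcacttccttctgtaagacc
Window 1 held 0 matches and window 2 held 1 match. Over all genes, 13345 of 35116 windows of the same length (38%) held the motif. Of the 8 members with such windows, 5 held it in at least 1. Windows of 1 gene can share bases, as do the 3 BID windows that held the motif, so windows are not counted separately for the members. The 38% counts windows, whereas the 5 of 8 counts genes, which can have several windows. No share per gene was computed over all genes, so these values cannot be set against each other. A match describes the letters only and shows neither binding nor use of that start.

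The libraries held 14531420 (SW620 replicate 2) to 22028956 (SW620 replicate 3) counts assigned to genes. A level is given here as CPM, counts scaled to a common library total, after TMM scaling over the 12 libraries, and 3 counts, the limit that a count of 0 allows, came to 0.139 to 0.175 CPM. These limits cover counting error only. Lineage markers followed the labels for the colorectal factor CDX2, at 18.8 ± 2.37 CPM in SW480 and 18.3 ± 4.04 in SW620 (SD, n = 3) but at most 0.125 on average in PEO4. The Müllerian factor PAX8 stood at 555 ± 19.1 CPM in control PEO4 against 44.3 ± 13.8 in SW480, whereas the colonic keratin KRT20 was close to absent even in the SW lines, at 0.209 CPM in SW480 and 0.477 in SW620. The summed level of 5 blood cell markers was 1.85 to 15 CPM and that of 5 fibroblast markers 0.979 to 14.3 CPM, with the highest sums of both in SW620. A set of 24 genes abundant in every PEO4 library and near 0 in SW480 stood at a median of 1.08% of their PEO4 level in SW620 replicate 3, 0.175% in replicate 1 and 0% in replicate 2. For the tested members, 1.08% of the PEO4 level equals at most 4.09% of the level in SW620 replicate 3, reached by PMAIP1, and its part in the results was not tested. RNA came from whole cultures, so a change in every cell and a change in the share of cells expressing a gene cannot be told apart.

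BCL2L1, which encodes the survival protein BCL-XL, and MCL1, a short-lived survival protein, made up most of the survival transcripts in all 4 groups. Levels of different genes were compared per length, as CPM per kb of exon. On that scale BCL2L1 averaged 73.5 in SW480, 36.6 in SW620, 37.5 in control PEO4 and 34.9 in TGF-β-treated PEO4. MCL1 averaged 29.2, 41.4, 59.2 and 51.8 CPM per kb in the same order. BCL2L2 (BCL-w) lay below both, at 6.79 to 15.9 CPM per kb, and BCL2, the founding member of the family, averaged only 0.450 to 0.611 CPM per kb. BCL2A1 (BFL-1), best known from blood cells, was at or near the limit of detection, with 1, 0 and 0 counts in SW480, 0 in each SW620 library, 5, 4 and 1 in control PEO4 and 5, 1 and 0 with TGF-β. It did not pass the filter on low counts in either comparison and was not tested, so 9 of the 10 members have a test.

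SW480 stood apart in the make-up of the survival group. Of the summed per-length level of the 5 survival genes, BCL2L1 took 66.2% ± 2.55 in SW480, 42.3% ± 4.35 in SW620, 34.0% ± 4.82 in control PEO4 and 34.2% ± 3.34 with TGF-β (SD, n = 3). MCL1 took 26.5% ± 1.11 in SW480, 48.8% ± 2.85 in SW620, 52.6% ± 6.99 in control PEO4 and 49.5% ± 6.05 with TGF-β. BCL2L2 took 6.84% in SW480, 8.18% in SW620, 12.6% in control PEO4 and 15.7% with TGF-β on average. The per-length ratio of BCL2L1 to MCL1 was 2.65, 2.28 and 2.57 in the 3 SW480 libraries. In SW620 it was 0.802, 0.776 and 1.04, so the highest SW620 library lay well below the lowest SW480 library. In PEO4 the ratio was 0.559, 0.546 and 0.885 without TGF-β and 0.652, 0.576 and 0.885 with it, and these libraries overlapped. With 3 libraries in each group, the smallest p that an exact two-sided permutation test can reach is 0.1, and the ratio is given as a description. Computed with the length of the longest transcript, the ratio was 2.6 to 3.03 in SW480 and 0.887 to 1.18 in SW620. Of the exon bases of BCL2L1, 43% also lie in exons of the antisense gene ABALON, where reads may have been shared or dropped. This limits the per-length level of BCL2L1, the shares and the ratio, and its part was not tested.

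**Figure D1:**
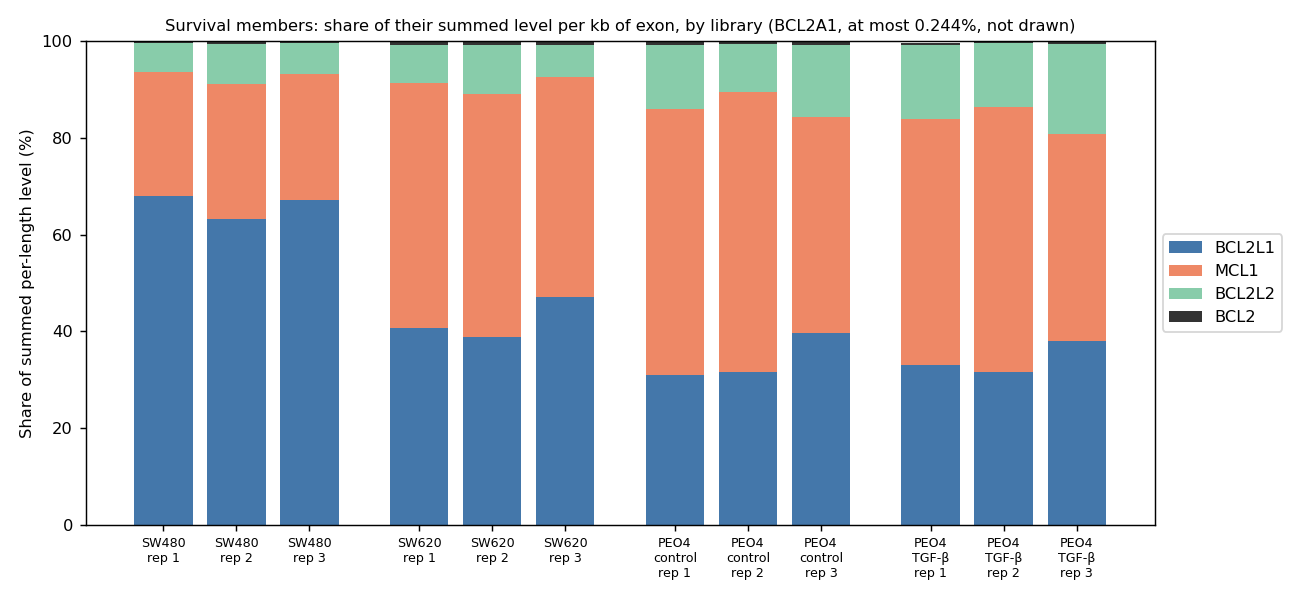
Share of each survival gene (%, vertical axis) in the summed level per kb of exon of the survival genes, 1 stacked bar per library in the 4 groups. BCL2L1 takes 63.3 to 68% of each SW480 bar and 30.9 to 47.2% of every other bar.

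BAK1, whose protein forms pores in the outer mitochondrial membrane, averaged 14.7 ± 2.16 CPM in SW480, 13.6 ± 3.02 in SW620, 54.4 ± 8.97 in control PEO4 and 70.8 ± 6.12 with TGF-β (SD, n = 3). PMAIP1 (NOXA), a BH3-only partner of MCL1, averaged 24.6 ± 4.73, 17.3 ± 2.47, 65.5 ± 19.6 and 84.5 ± 9.88 CPM in that order. BID, which caspase-8 cuts to link death receptors to mitochondria, averaged 20.6 ± 3.51, 22.6 ± 5.94, 55.9 ± 2.5 and 41.2 ± 3.79 CPM. For each of these 3 genes, as for BCL2L2, every PEO4 library lay above every SW library. How many of all genes separate in this way was not counted, so the order is not shown to be particular to these genes. The SW and PEO4 lines differ in tissue, donor and medium, which cannot be told apart, and no test was made between them.

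BCL2L11 and BMF did not follow that order. BCL2L11 (BIM), a BH3-only protein that binds all the survival proteins, averaged 43.2 CPM in SW480, 46.9 in TGF-β-treated PEO4, 51.5 in control PEO4 and 64.2 in SW620, and each neighbouring pair in that order overlapped. BMF averaged 4.28 CPM in SW620, 7.27 in control PEO4, 11.2 in SW480 and 18.5 with TGF-β. SW620 lay below control PEO4 without overlap, whereas control PEO4 overlapped SW480 and SW480 overlapped TGF-β-treated PEO4. Per length, PMAIP1 was the BH3-only member with the highest mean in SW480 (11 CPM per kb), control PEO4 (29.3) and TGF-β-treated PEO4 (37.8), and BCL2L11 was the one in SW620 (9.64). BMF had the lowest mean of the 4 in every group, from 0.786 CPM per kb in SW620 to 3.40 with TGF-β.

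**Figure D2:**
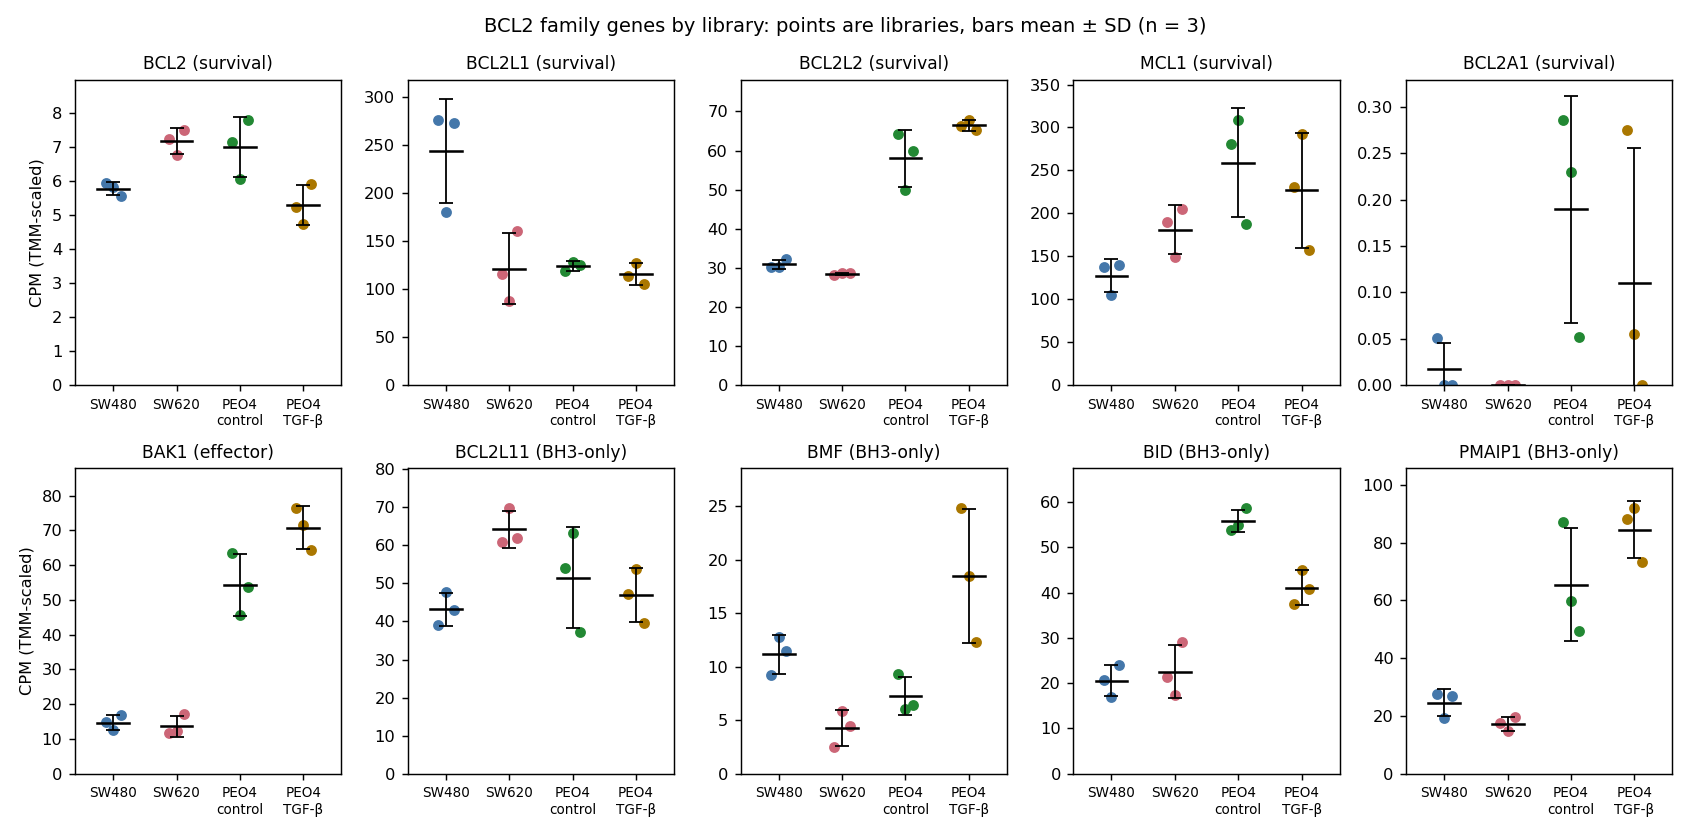
Level of each member in CPM (TMM-scaled, vertical axes from 0) in the 4 groups, with 1 point per library and bars for mean ± SD (n = 3). BAK1, BID, PMAIP1 and BCL2L2 are higher in every PEO4 library than in every SW library, an order not counted over all genes. BCL2L1 is highest in SW480, and BMF is on average lowest in SW620 and highest with TGF-β.

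SW620 was compared with SW480 to ask what sets cells of a metastasis apart from cells of the primary tumour. Of 9 members tested, BCL2L11 was higher in SW620, BCL2L1 and BMF were lower, and the other 6 did not pass an adjusted p of 0.05 (edgeR's quasi-likelihood test, Benjamini-Hochberg over all genes). Those 3 of 9 members (33.3%) stand beside 6385 of 20941 genes tested (30.5%) called in this comparison, so the members' share lies near the background. DESeq2 called 34% of all genes and limma-voom 30.6%. The members' median log2 fold change was -0.09, against 0.03 over all genes tested. The libraries of the 2 lines did not overlap for 6 of the 9 members (66.7%), against 43.9% of all genes tested. Each line is 1 culture lineage, so the comparison is between these lines.

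BCL2L1 stood at 277, 181 and 273 CPM in SW480 and at 115.5, 87.5 and 161 CPM in SW620. Every SW620 library lay below every SW480 library, and replicate 2 was the lowest in both lines. The fitted level was 1.98-fold lower in SW620, with a fitted log2 difference of -0.99 (SE 0.26, adjusted p = 0.0190 by edgeR). The call was lost without SW480 replicate 1 (adjusted p = 0.10), without SW480 replicate 3 (0.0819) and without SW620 replicate 1 (0.112). BCL2L1 lies at chr20:31664452-31723989 on the minus strand (GRCh38, ENSG00000171552), and 43.0% of its exon bases also lie in exons of the antisense gene ABALON. Whether counting used strand is not given in the sources used here, so reads of the pair may have been shared or dropped. The counts of ABALON do not measure this. ABALON itself held 281 to 330 counts in SW480 and 191 to 263 in SW620, against 3098 to 5503 and 1627 to 3463 for BCL2L1.

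MCL1 moved the other way without passing the threshold. It stood at 138, 105 and 140 CPM in SW480 and at 190, 149 and 205 CPM in SW620, with no overlap between the lines. The log2 fold change was 0.53 ± 0.19 (SE), with an adjusted p of 0.0695 by edgeR. It passed in 4 of the 8 other analyses of all 6 libraries, DESeq2 among them at an adjusted p of 0.0491, and without SW620 replicate 2 (adjusted p = 0.0153). BCL2 stood at 5.94, 5.84 and 5.55 CPM in SW480 and 7.25, 6.78 and 7.52 in SW620, a log2 difference of 0.34 ± 0.21 (SE, adjusted p = 0.278 by edgeR). BCL2L2 differed by -0.10 ± 0.14 on the log2 scale (adjusted p = 0.649 by edgeR), with 30.2 to 32.2 CPM in SW480 and 28.1 to 28.6 in SW620.

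Of the death genes, BMF had the largest difference between the lines among the 9 tested members. It stood at 9.21, 12.8 and 11.5 CPM in SW480 and at 2.53, 5.86 and 4.46 CPM in SW620. SW620 replicate 1 was the lowest library, at 52 counts, and the lines did not overlap. BMF was 2.56-fold lower in SW620, with a fitted log2 difference of -1.36 (SE 0.32) and an adjusted edgeR p of 0.0111. It passed the threshold in each of the 14 other analyses, including the 6 that leave out 1 library, with adjusted p between 2.22e-05 and 0.0356. In exon bases, 8.46% of BMF overlap BMF-AS1, which was at 0 counts in all 12 libraries.

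BCL2L11 stood at 39.0, 47.7 and 42.9 CPM in SW480 and at 60.9, 69.7 and 61.8 CPM in SW620. Every SW620 library lay above every SW480 library, and replicate 2 was the highest in both lines. It was 1.51-fold higher in SW620, with a fitted log2 difference of 0.59 (SE 0.15) and an adjusted edgeR p of 0.0175. The call was lost without SW480 replicate 1 (adjusted p = 0.0993), without SW480 replicate 3 (0.0984) and with no filter on low counts (0.0551). BCL2L11 lies at chr2:111119378-111168447 on the plus strand (GRCh38, ENSG00000153094), and 10.9% of its exon bases overlap the antisense gene MIR4435-2HG. That gene went the other way, with 2451, 2294 and 2028 counts in SW480 and 944, 1056 and 671 in SW620, and its part in the BCL2L11 counts was not tested.

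The remaining death genes did not pass the threshold between the lines. PMAIP1 stood at 27.6, 19.2 and 27.1 CPM in SW480 and 17.4, 14.8 and 19.7 in SW620, where the lowest SW480 library fell below the highest of SW620. Its log2 fold change was -0.49 ± 0.20 (SE, adjusted p = 0.0952 by edgeR), and without SW480 replicate 2 the adjusted p was 0.0372. BAK1 stood at 14.8, 12.5 and 16.8 CPM in SW480 and 11.6, 12.2 and 17.1 in SW620, a log2 difference of -0.09 ± 0.21 (SE, adjusted p = 0.786 by edgeR). BID stood at 20.6, 17.1 and 24.1 CPM in SW480 and 21.3, 17.4 and 29.1 in SW620, a log2 difference of 0.15 ± 0.22 (SE, adjusted p = 0.656 by edgeR). For BAK1 and BID the lines overlapped, and the sign of the difference depended on which library was left out.

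Treatment of PEO4 with TGF-β was compared with control medium to ask what the cytokine changes in this line. Of 9 members tested, BMF was higher and BID was lower, both BH3-only genes, and the other 7 did not pass an adjusted p of 0.05 (edgeR's quasi-likelihood test). These 2 of 9 members (22.2%) stand beside 431 of 19064 genes tested (2.26%) called in this comparison, 1.27% higher and 0.991% lower. DESeq2 called 4.92% of all genes and limma-voom 2.27%. The members were chosen with earlier results of these data known, so the gap between the shares is a description. The members' median log2 fold change was -0.14, against -0.02 over all genes tested. The groups did not overlap for 5 of the 9 members (55.6%), namely BCL2, BCL2L2, BAK1, BMF and BID, against 20% of all genes tested.

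BMF stood at 9.34, 6.05 and 6.42 CPM in control PEO4 and at 24.8, 18.5 and 12.3 CPM with TGF-β. The lowest treated library lay above the highest control library, although the treated libraries spread over about as wide a range as separated the group means. BMF was 2.5-fold higher with TGF-β, with a fitted log2 difference of 1.32 (SE 0.26) and an adjusted edgeR p of 0.0348. The call was lost without control replicate 2 (adjusted p = 0.196) or 3 (0.0903) and without treated replicate 1 (0.111) or 2 (0.116). With limma-voom the adjusted p was 0.0581, and with all 12 libraries in 1 model it was 0.0596. In the authors' deposited table BMF has a log2 fold change of 1.32 with an adjusted p of 2.93e-05.

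BID stood at 53.9, 55.0 and 58.7 CPM in control PEO4 and at 37.5, 45.1 and 40.9 CPM with TGF-β. Each treated library lay below each control library, and both groups were tight. BID was 1.39-fold lower with TGF-β, with a fitted log2 difference of -0.47 (SE 0.09) and an adjusted edgeR p of 0.0318. The call held without control replicate 1 but was lost without control replicate 2 (adjusted p = 0.149) or 3 (0.0982) and without treated replicate 1 (0.148), 2 (0.0927) or 3 (0.0896). It held in 7 of the 8 other analyses that left out no library, among them DESeq2 (adjusted p = 0.00224) and limma-voom (0.0337). In the remaining one, with all 12 libraries in 1 model, the adjusted p of BID was 0.488. In the authors' deposited table BID has an adjusted p of 0.00186. BID lies at chr22:17734138-17774770 on the minus strand (GRCh38, ENSG00000015475), and none of its exon bases overlap exons of another annotated gene.

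**Figure D3:**
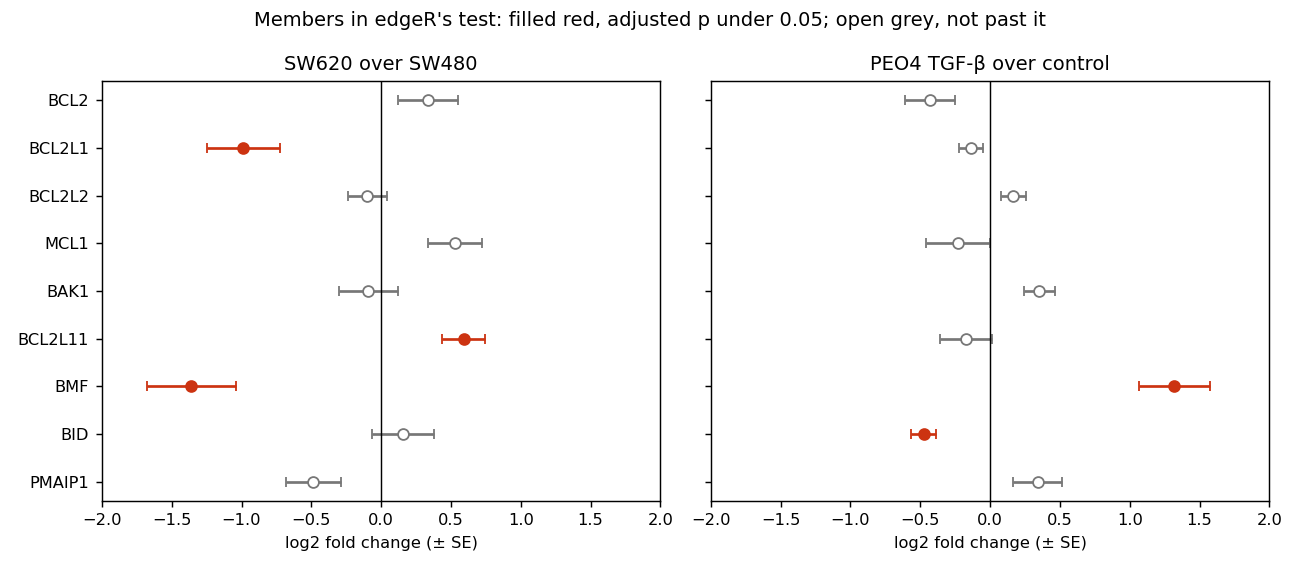
Log2 fold change of each tested member (horizontal axis, bars ± SE, edgeR, n = 3 libraries per group) for SW620 over SW480 (left) and TGF-β over control in PEO4 (right), filled red where the adjusted p is under 0.05. BCL2L1 at -0.99, BCL2L11 at 0.59 and BMF at -1.36 are filled on the left, and BMF at 1.32 and BID at -0.47 on the right.

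None of the 4 survival genes tested in PEO4 passed the threshold with edgeR, DESeq2 or limma-voom. With edgeR 1 of them, BCL2, had an unadjusted p under 0.05, beside 3175 of 19064 genes tested. BCL2 stood at 7.16, 6.05 and 7.81 CPM in control PEO4 and 5.23, 4.74 and 5.92 with TGF-β, a log2 difference of -0.43 ± 0.18 (SE, adjusted p = 0.263). BCL2L1 stood at 119, 128 and 126 CPM in control and 114, 128 and 106 with TGF-β, a log2 difference of -0.14 ± 0.09 (SE, adjusted p = 0.475). The groups did not overlap for BCL2 and overlapped for BCL2L1. MCL1 stood at 280, 309 and 187 CPM in control and 230, 292 and 157 with TGF-β, a log2 difference of -0.23 ± 0.23 (SE, adjusted p = 0.662). Replicate 3 was the lowest and replicate 2 the highest MCL1 library in both groups. BCL2L2 stood at 64.1, 50.0 and 60.0 CPM in control and 66.3, 67.9 and 65.2 with TGF-β, a log2 difference of 0.17 ± 0.09 (SE, adjusted p = 0.391). Of its exon bases, 19.4% are shared with the readthrough gene BCL2L2-PABPN1 on the same strand, which held 5 to 23 counts per library. A further 4.92% overlap PPP1R3E on the other strand. Reads in shared bases may have been shared or dropped, which limits the per-length level and share of BCL2L2. The counts of the readthrough gene do not measure this.

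BAK1 stood at 63.7, 45.7 and 53.8 CPM in control PEO4 and 76.4, 71.7 and 64.3 with TGF-β. The groups did not overlap, by a margin of less than 1 CPM between the lowest treated and the highest control library. The log2 difference was 0.35 ± 0.11 (SE), with an adjusted p of 0.165 by edgeR. It passed with no filter on low counts (adjusted p = 0.0298) and without control replicate 1 (0.0402). PMAIP1 stood at 87.3, 59.7 and 49.4 CPM in control and 88.4, 91.9 and 73.3 with TGF-β, a log2 difference of 0.34 ± 0.18 (SE, adjusted p = 0.377 by edgeR). Control replicate 1 lay among the treated libraries, and without it the adjusted p was 0.0305. BCL2L11 stood at 54.1, 63.3 and 37.2 CPM in control and 47.1, 53.9 and 39.7 with TGF-β, a log2 difference of -0.17 ± 0.19 (SE, adjusted p = 0.692 by edgeR), and the groups overlapped.

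BMF was thus the member called in both comparisons, lower in SW620 than in SW480 and higher with TGF-β than in control medium. The comparisons share no library. They contrast different things, and the difference between the 2 BMF effects was not tested. The authors' deposited table lists the same directions for the called members, with log2 fold changes of -0.995 for BCL2L1, 0.593 for BCL2L11 and -1.36 for BMF in SW620 over SW480, and -0.475 for BID with TGF-β. In that table the adjusted p of MCL1 between the SW lines is 0.0462, and BCL2A1 has no row in either comparison.

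**Figure D4:**
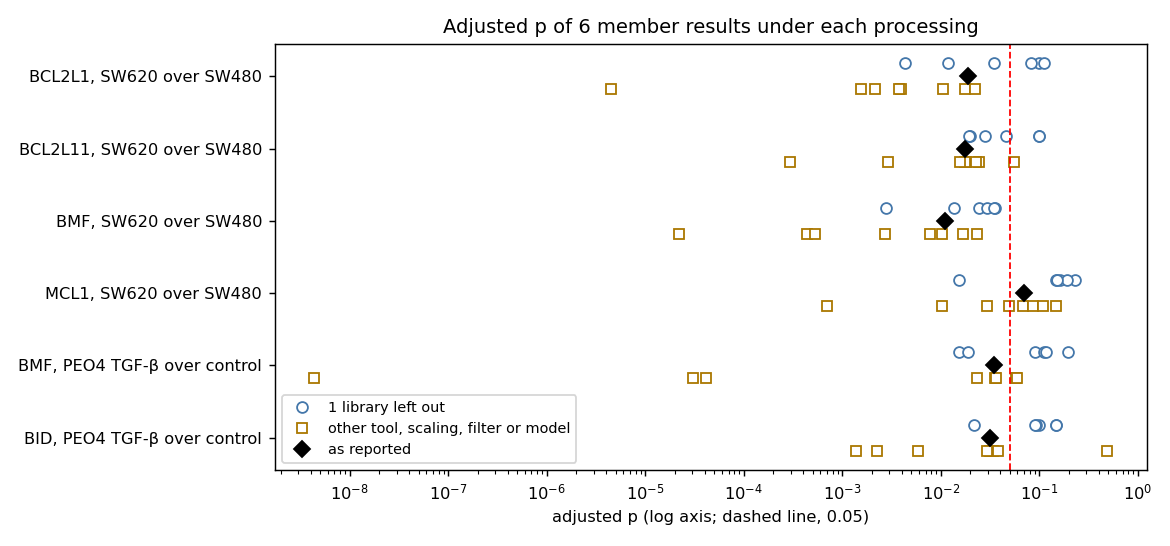
Adjusted p (horizontal log axis, dashed line at 0.05) of 6 member results as reported (diamonds), with 1 library left out (circles) and under another tool, scaling, filter or model (squares). All BMF values for SW620 over SW480 lie left of the line, whereas each of the other 5 results has values on both sides.

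Other genes of the pathway were taken from 4 lists with 47 genes, and they were read from the same fits. Among 13 other BCL2-related genes, 6 were lower and none higher in SW620, with a median log2 fold change of -0.68 beside 0.03 over all genes tested. In this comparison 17% of all genes tested were called lower and 13.5% higher. BBC3 (PUMA), a BH3-only gene induced by p53, averaged 20.7 ± 2.52 CPM in SW480 and 6.30 ± 2.53 in SW620 (SD, n = 3). The log2 difference was -1.69 (SE 0.29, adjusted p = 0.00216 by edgeR). BOK, a pore-forming relative of BAK1 and BAX, averaged 26.0 ± 4.85 CPM in SW480 and 5.03 ± 0.901 in SW620 (log2 fold change -2.35 ± 0.22 SE, adjusted p = 6.87e-05 by edgeR). BCL2L15 averaged 50.7 CPM in SW480 and 8.76 in SW620 (adjusted p = 8.93e-05 by edgeR). BCL2L12 averaged 23.9 and 7.15 CPM (adjusted p = 0.000408 by edgeR). The calls of these 4 genes held whichever library was left out. BAD, a BH3-only gene of growth factor signalling, averaged 14.0 CPM in SW480 and 7.43 in SW620 (adjusted p = 0.0223 by edgeR), and BNIP3L, which acts in removal of mitochondria, 62.8 and 38.7 CPM (adjusted p = 0.0174). The BAD and BNIP3L calls were lost without SW480 replicate 1, SW480 replicate 3 or SW620 replicate 1, with adjusted p from 0.0931 to 0.112 for BAD and from 0.0995 to 0.104 for BNIP3L. The effector BAX did not pass between the lines, at 53.2 ± 6.93 CPM in SW480 and 44.4 ± 13.3 in SW620 (log2 fold change -0.24 ± 0.22 SE, adjusted p = 0.460 by edgeR).

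The other 3 lists held 5 genes called between the SW lines, beside 6385 of 20941 genes tested (30.5%). In each of these lists the share called lay below that background. Of 13 caspase and apoptosome genes, 2 were lower and none higher in SW620 (median log2 fold change -0.05). CASP10, a death receptor caspase, averaged 3.94 CPM in SW480 and 0.558 in SW620 (adjusted p = 0.0140 by edgeR, 0.052 without SW480 replicate 1). Its SW620 libraries held only 1, 19 and 13 counts, and replicate 1 lay under the limit of 3 counts. CASP8, the initiator that cuts BID, averaged 29.7 and 19.6 CPM, with an adjusted p of 0.0288 that rose to between 0.0527 and 0.133 on leaving out any 1 library except SW620 replicate 2. With all 6 libraries it was also lost under total-count scaling (adjusted p = 0.0998), with no filter (0.0534) and with at least 10 counts in every library (0.0504). Of 6 inhibitor of apoptosis genes tested, NAIP was higher in SW620, at 4.78 against 1.44 CPM (adjusted p = 0.0158 by edgeR). The NAIP call was lost without SW480 replicate 1 (0.0646), SW480 replicate 3 (0.0622) or SW620 replicate 1 (0.0557), and NAIP has near-identical copies in the genome, so its counts are uncertain. Of 14 partners and regulators, VDAC2, a mitochondrial channel that binds BAK1, was higher in SW620 at 104.5 against 55.5 CPM (adjusted p = 0.0174 by edgeR). That call was lost without SW480 replicate 1 (0.0666), SW480 replicate 2 (0.062) or SW620 replicate 1 (0.068). DDIT3 (CHOP), a stress factor, was lower at 14.5 against 24.8 CPM (adjusted p = 0.00766 by edgeR, 0.057 without SW620 replicate 1).

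In PEO4, BOK and BAX were the 2 list genes past the threshold, and both were higher with TGF-β, beside 1.27% of all genes tested that were called higher. BOK stood at 127, 102 and 120 CPM in control and 192, 191 and 167 with TGF-β, a log2 fold change of 0.63 ± 0.09 (SE, adjusted p = 0.0109 by edgeR). BAX stood at 80.2, 65.3 and 76.9 CPM in control and 102, 103 and 100.8 with TGF-β, a log2 fold change of 0.43 ± 0.08 (SE, adjusted p = 0.0303 by edgeR). Neither gene's groups overlapped. The BOK call was lost without control replicate 2 (adjusted p = 0.0645), treated replicate 1 (0.0555) or treated replicate 2 (0.0613), and the BAX call without control replicate 2 (0.143), control replicate 3 (0.0751) or treated replicate 1 (0.128), 2 (0.125) or 3 (0.0874). With all 12 libraries in 1 model neither passed, at adjusted p of 0.0949 for BOK and 0.469 for BAX. The median log2 fold change of the 13 other BCL2-related genes was 0.24, beside -0.02 over all genes tested. None of 12 caspase and apoptosome genes, 6 inhibitors of apoptosis and 14 partners and regulators passed with edgeR, DESeq2 or limma-voom. With edgeR 2, 2 and 5 of them had an unadjusted p under 0.05, beside 3175 of 19064 genes tested.

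**Figure D5:**
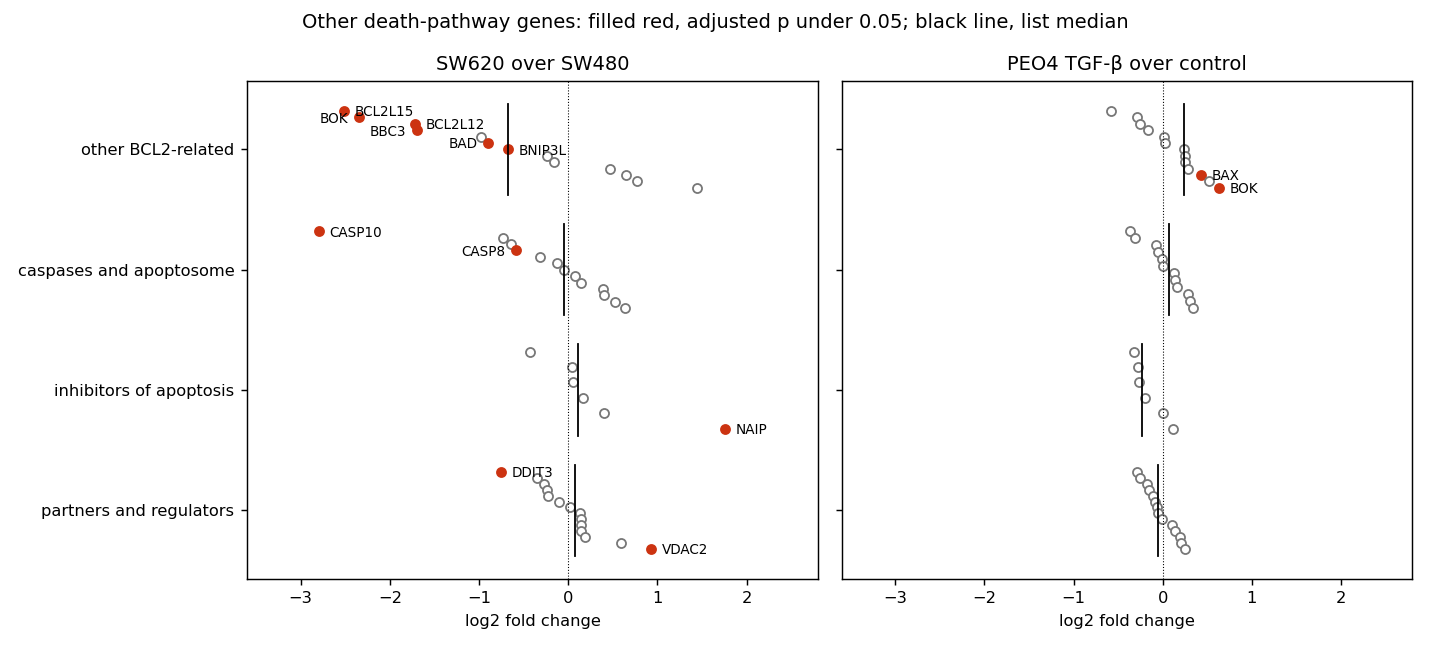
Log2 fold change (horizontal axis) of each tested gene of the 4 pathway lists for SW620 over SW480 (left) and TGF-β over control in PEO4 (right), with 1 point per gene, filled red where the adjusted p is under 0.05, and a black line at the list median. The other BCL2-related genes have a median of -0.68 on the left, with 6 filled points below 0, and 0.24 on the right, with BAX and BOK filled.

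The genes whose levels most resembled those of the called members were ranked by Pearson's r of log2 CPM over the 12 libraries among 18054 genes, given with no test because the libraries fall into separate lines. For BCL2L1 they were HMCES (r = 0.989) and EID2 (0.986), and HMCES averaged 41.9 CPM in SW480 and 23.8 to 25 CPM in the other groups. For BMF they were WIPI1 and RASD2, both at r = 0.95. WIPI1, which acts in autophagy, averaged 38.2 CPM in SW480, 23.7 in SW620, 30.9 in control PEO4 and 43.4 with TGF-β, the same order of groups as BMF. For BID they were GMEB2 and SIN3A, both at r = 0.982. For BCL2L11 the highest values were lower, at 0.899 for the small RNA gene copy RNU6-547P, which averaged at most 1.08 CPM in any group, and 0.892 for CCDC74A.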

How the data were processed

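RNA from 12 libraries was sequenced after rRNA depletion and DNase treatment, per the labels' protocols. The authors' deposited counts are whole numbers for 57500 genes, of which 485 have no symbol. Trimmomatic 0.36, STAR 2.5.2b, featureCounts of Subread 1.5.2, DESeq2 and GRCh38 are named in the submitters' processing notes, without role or order, and the annotation release and strand setting are not given in the sources used here. The authors' deposited tables give, per the file headers, normalized counts per library (a signal, found to equal the count over a library's size factor), a log2 fold change and raw and adjusted p-values, and were used only where named.

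The 6 libraries of a comparison were fitted alone in edgeR 4.0.16 (R 4.3.3): filterByExpr, TMM scaling, glmQLFit and glmQLFTest, two-sided, Benjamini-Hochberg adjustment over all genes tested, threshold 0.05. Standard errors are the log2 fold change divided by the root of the F statistic. edgeR's common coefficient of biological variation came to 0.274 (SW) and 0.152 (PEO4). CPM in the text are counts over TMM-scaled totals, exon lengths and overlaps come from GENCODE 29, in which 56898 gene IDs were found, and promoters from RefSeq. The correlations of likeness used log2 CPM with a prior count of 2. The labels call the replicates biological but name no separate cultures, so p-values measure the spread between these libraries. The script was tested on simulated data.

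All 10 members are named whatever their result, with list genes past the threshold (at most 6 per list and comparison), BAX, which was named after its values were seen where it did not pass, and the 2 genes most like each called member. The members and lists were chosen with earlier results of these data known. Alternatives were DESeq2 1.42.0, limma-voom (limma 3.58.1), no filter, RLE factors, a minimum of 10 counts per library, total-count scaling, the replicate number as a block, all 12 libraries in 1 model, and each library left out in turn.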

Additional observations from a re-analysis of the deposited data

How the results depend on the processing

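In the SW lines 6385 genes, 3 members and 11 pathway genes were called. Leaving out 1 library gave 4253 to 7419 genes, 1 to 4 members and 5 to 17 pathway genes, and all 12 libraries in 1 model gave 17 pathway genes. In PEO4 431 genes, 2 members and 2 pathway genes were called. DESeq2 gave 937 genes and no filter 1457, whereas limma-voom called 1 member, BID. All 12 libraries in 1 model gave 165 genes, 0 members and 0 pathway genes. In that edgeR fit 1891 genes, 4 members and 2 pathway genes had an unadjusted p under 0.05. Leaving out 1 PEO4 library gave 72 to 1080 genes in edgeR (72 without control replicate 2, 1080 without control replicate 1), with 0 to 4 members and 0 to 2 pathway genes. In these fits 2 to 5 members had an unadjusted p under 0.05, beside 1928 to 3981 of all genes. No member was called without control replicate 2 or 3 or treated replicate 1 or 2. The cause was not tested.

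Same-numbered replicates deviated together with correlations of 0.0159, 0.67 and 0.567 in the SW lines and 0.291, -0.14 and 0.481 in PEO4. For unlike numbers the correlations ran from -0.63 to 0.267 in the SW lines and from -0.486 to 0.239 in PEO4. Not every library correlated best with its own number, and the numbers were not taken to pair the samples. These values do not settle whether the replicates were paired. With the replicate number as a block, 10667 genes, 5 members (MCL1 and PMAIP1 added) and 25 pathway genes were called in the SW lines. In PEO4 the block gave 2102 genes, 4 members (BAK1 and PMAIP1 added) and 5 pathway genes. The adjusted edgeR p of MCL1 in PEO4 was 0.0505 with the block and 0.662 without it.

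Among results that were not called, leaving out 1 library turned the sign of the log2 fold change for BAK1 (-0.299 to 0.0505) and BID (-0.0768 to 0.359) between the SW lines and for BCL2L11 in PEO4 (-0.355 to 0.0314). Per the longest transcript, the BCL2 share was 0.59, 0.971, 0.733 and 0.607% in SW480, SW620, control and treated PEO4. The BCL2L1 share in SW480 was then 68.8% and the MCL1 share 24.1%, and the MCL1 share in SW620 was 45.8%. At these depths a level under 0.139 to 0.175 CPM cannot be told from 0, which among the members touches BCL2A1. BCL2A1 was tested only without the filter and has no value to compare. Fits with 1 library left out assume that the group of 2 varies like the group of 3.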
